A study of Homo sapiens with 3 samples.

Results

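DNA methyltransferases (DNMT1, DNMT3A, DNMT3B and DNMT3L) and TET dioxygenases (TET1, TET2 and TET3) were followed across the cell clusters of embryonal carcinoma (EC) lines driven toward the yolk-sac tumor (YST) lineage. All 7 genes were taken by name from the 32727 genes of the deposited expression table, 4 from the DNMT family and 3 from the TET family. NCCIT, GCT27 (named GCT26 in other label fields) and 2102EP are human EC lines, the stem cell-like component of non-seminomatous germ cell tumors. Each line carried lenti-MPHv2, the activator part of a CRISPR activation system, and received SOX17-lenti-SAMv2 virus to switch on its own SOX17 gene. From the day after infection the cells received 100 ng/mL Activin-A and 3 μM CHIRON together with 25 ng/mL FGF2 and 1 μg/mL heparin, renewed every 48 h, and on day 8 the 3 pooled replicates of each line gave 1 droplet library. No untreated library was analysed here, and every cell of every group had the same virus and treatment. The table held averages over 14 clusters of 20844 cells in all, numbered 0 to 13, with the 3 libraries pooled in each cluster.

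A value is the mean over the cells of a cluster of unique molecular identifiers (UMIs, counted RNA molecules) per 10000 UMIs of the cell. Because libraries were pooled and the clusters were built from the same expression values, no replicate error exists and no test was made, so all levels and differences are descriptions. A cluster was set against the unweighted mean of the other 13 clusters as a log2 difference after adding 0.1 to both sides, which understates the change of low genes, and a difference of at least 2-fold on that scale was counted. The same count over the 12139 genes with a mean of at least 0.05 gives the background, and 6 of the 7 genes passed that minimum, all except DNMT3L. Clusters held between 42 (cluster 13) and 2808 cells (cluster 0). In clusters 5, 11 and 13 the median log2 difference of all genes was -0.24, -0.29 and -0.51, against -0.05 to 0.09 elsewhere, so most genes read low there. The largest of 3 library codes, taken in each cluster separately, made up 83.2%, 86.3% and 99.4% of the cells in clusters 9, 11 and 12. The codes match no line in the labels, and cluster and line cannot be told apart there.

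The induced gene and the lineage markers place the clusters. SOX17 averaged 20.97 UMIs per 10000 in cluster 0, followed by clusters 7 (12.4), 13 (8.52) and 6 (4.54), with the lowest level in cluster 10 (0.0772). Cluster 6 was highest for 8 of the 9 EC genes examined, among them POU5F1 (3.96), L1TD1 (3.46), SOX2 (1.598), LIN28A (1.62), DPPA4 (1.30), NANOG (1.06), GDF3 (0.572) and PRDM14 (0.339), and TDGF1 was highest in cluster 8 (1.18). The summed level of those EC genes was 14.7 in cluster 6 and 1.36 to 8.61 in the others. Cluster 4 was highest for the mesenchymal genes VIM (40.9), FN1 (3.61) and HMGA2 (5.85), and cluster 9 for the presomitic mesoderm genes TBXT (0.541), TBX6 (0.393) and MSGN1 (4.58). The YST markers besides SOX17 peaked in different clusters, GPC3 in cluster 9 (9.78), ANKRD1 in cluster 1 (6.84), CST1 in cluster 10 (2.81), APOA1 in cluster 0 (0.961) and GATA6 in cluster 8 (0.633). AFP did not exceed 0.0148 and FOXA2 0.00457 in any cluster, and the germ cell markers DAZL, DDX4 and SYCP3 together did not exceed 0.059. These genes helped form the clusters, so they orient the description and are no result.

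Cytosine methylation at CpG sites is copied to the new strand after replication by DNMT1, which UHRF1 guides to hemimethylated DNA. DNMT3A and DNMT3B place new methyl groups, and DNMT3L, which has no catalytic activity, stimulates them in germ cells and early embryos. TET enzymes oxidise methylcytosine, and the oxidised bases are lost by dilution through replication or by excision with TDG. DNMT3B and TET1 are known for high expression in pluripotent cells.

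On GRCh38 with GENCODE release 44, DNMT1 spans chromosome 19 from 10133342 to 10231286 on the minus strand, DNMT3A chromosome 2 from 25227855 to 25342590 on the minus strand, and DNMT3B chromosome 20 from 32762385 to 32809359 on the plus strand. DNMT3L spans chromosome 21 from 44246339 to 44262216 on the minus strand, TET1 chromosome 10 from 68560337 to 68694487 on the plus strand, TET2 chromosome 4 from 105145875 to 105279816 on the plus strand, and TET3 chromosome 2 from 73984910 to 74108176 on the plus strand. Promoters of 4 of these genes, 2 writers and 2 erasers, are shown because CpG sites are the substrate of these enzymes. Each window runs from 270 bases before the start of the canonical transcript through 30 bases from it, read 5′ to 3′ on the strand of the gene, and capitals mark CpG sites. The windows lie at chr19:10194924-10195223, minus strand (DNMT1), chr2:25341896-25342195, minus strand (DNMT3A), chr10:68560067-68560366, plus strand (TET1) and chr4:105146606-105146905, plus strand (TET2).
DNMT1: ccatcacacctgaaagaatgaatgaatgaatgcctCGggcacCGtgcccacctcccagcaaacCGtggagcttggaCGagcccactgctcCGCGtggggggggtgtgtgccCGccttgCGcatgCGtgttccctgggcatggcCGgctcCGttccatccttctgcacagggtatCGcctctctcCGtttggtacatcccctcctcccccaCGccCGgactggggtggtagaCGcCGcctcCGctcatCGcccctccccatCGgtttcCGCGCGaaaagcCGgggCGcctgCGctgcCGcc
DNMT3A: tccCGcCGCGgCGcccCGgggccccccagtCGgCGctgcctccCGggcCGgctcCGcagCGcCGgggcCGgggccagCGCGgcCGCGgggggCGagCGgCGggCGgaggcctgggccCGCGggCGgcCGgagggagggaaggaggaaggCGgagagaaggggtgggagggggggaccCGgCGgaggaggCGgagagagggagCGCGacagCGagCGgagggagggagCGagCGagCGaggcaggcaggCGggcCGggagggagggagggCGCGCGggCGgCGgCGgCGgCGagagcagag
TET1: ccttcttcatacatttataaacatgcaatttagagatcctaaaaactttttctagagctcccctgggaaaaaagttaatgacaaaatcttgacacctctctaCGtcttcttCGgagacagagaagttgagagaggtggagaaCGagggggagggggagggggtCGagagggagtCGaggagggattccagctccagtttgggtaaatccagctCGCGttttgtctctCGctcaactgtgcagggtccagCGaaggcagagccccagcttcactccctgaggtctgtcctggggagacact
TET2: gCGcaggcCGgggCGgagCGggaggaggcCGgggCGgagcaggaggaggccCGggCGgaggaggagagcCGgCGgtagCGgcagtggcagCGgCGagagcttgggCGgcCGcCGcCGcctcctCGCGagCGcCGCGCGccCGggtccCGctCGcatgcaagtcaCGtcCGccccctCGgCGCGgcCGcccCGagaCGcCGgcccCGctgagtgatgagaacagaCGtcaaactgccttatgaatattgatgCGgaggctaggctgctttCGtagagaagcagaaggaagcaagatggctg

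CpG sites numbered 46 in the DNMT3A window, 42 in that of TET3, 39 in TET2, 27 in DNMT1 and 9 in TET1, against a median of 23 in 17809 promoters of the same length. TET1 thus had fewer sites than the lower quartile of promoters (11), while DNMT3A, TET2 and TET3 had more than the upper quartile (33). Searched on both strands, the GC box GGGCGG, which itself holds a CpG, was present in DNMT3A, TET2 and TET3 and in 64.6% of all promoters. The POU octamer ATGCAAAT (1.505% of promoters), the SOX core ACAATG (7.17%), the E2F forms TTTCCCGC (2.34%) and TTTGGCGC (0.870%) and the CCAAT box (36.5%) matched none of the windows of DNMT1, DNMT3A, TET1, TET2 and TET3. Other forms of the E2F site were not searched for. Whether a window, that of DNMT1 included, holds an E2F site was therefore not decided. DNMT3L had no entry in the promoter table. No methylation was measured in these cells.

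DNMT1, the maintenance enzyme, averaged 1.97 in cluster 8 and 1.95 in cluster 6, followed by clusters 3 (1.65), 10 (1.55), 11 (1.52), 2 (1.39) and 5 (1.36). Lower levels were found in clusters 0 (1.27), 4 (1.19), 9 (1.16), 7 (1.15), 1 (1.14), 12 (0.832) and 13 (0.452). Levels thus ran without a gap from 1.14 to 1.65, with clusters 6 and 8 above and clusters 12 and 13 below. In the authors' marker table, which lists DNMT1 for both upper clusters, a UMI of DNMT1 was present in 98.7% of cluster 8 and 84.2% of all other cells, and in 98.3% of cluster 6 and 83.9% of the others.

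DNMT3B, the de novo enzyme of pluripotent cells, varied most of the 6 genes past the minimum among the clusters of over 100 cells, 7.22-fold from highest to lowest. It averaged 1.02 in cluster 6 and 0.726 in cluster 3, the next. An intermediate set comprised clusters 8 (0.608), 2 (0.601), 10 (0.592), 11 (0.532) and 5 (0.519). A lower set comprised clusters 0 (0.357), 1 (0.330), 7 (0.317) and 9 (0.278), and the lowest values were 0.144 in cluster 4, 0.142 in cluster 12 and 0.106 in cluster 13. DNMT3B was thus highest where the EC genes were highest and low where mesenchymal or presomitic mesoderm genes were highest. Of 15 mitotic (G2/M) genes, 6 were 2-fold lower in cluster 4, 12 in cluster 9 and 13 in cluster 12. There 1.24%, 3.12% and 3.13% of all genes were 2-fold lower. In cluster 3 all 15 were 2-fold higher, where 0.766% of all genes were. The part of the cell cycle in the order of DNMT3B was not tested. A DNMT3B UMI was seen in 83.1% of the 1626 cells of cluster 6 and 53.7% of the 19218 other cells. The log2 difference was 1.16 in cluster 6, where 1.18% of all genes were at least 2-fold higher. It was -1.23 in cluster 4, where 1.24% of all genes were at least 2-fold lower, and -1.24 in cluster 12, where 3.13% were. In cluster 13 it was -1.48, but 23.9% of all genes were at least 2-fold lower there, as were DNMT1 (-1.44), TET1 (-1.54) and TET2 (-1.21), and the cluster holds 42 cells. No other pair of a DNMT or TET gene and a cluster passed 2-fold. In the remaining 24 combinations of cluster and direction, the share of all genes past 2-fold lay between 0.0989% and 5.02%.

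**Figure D1:**
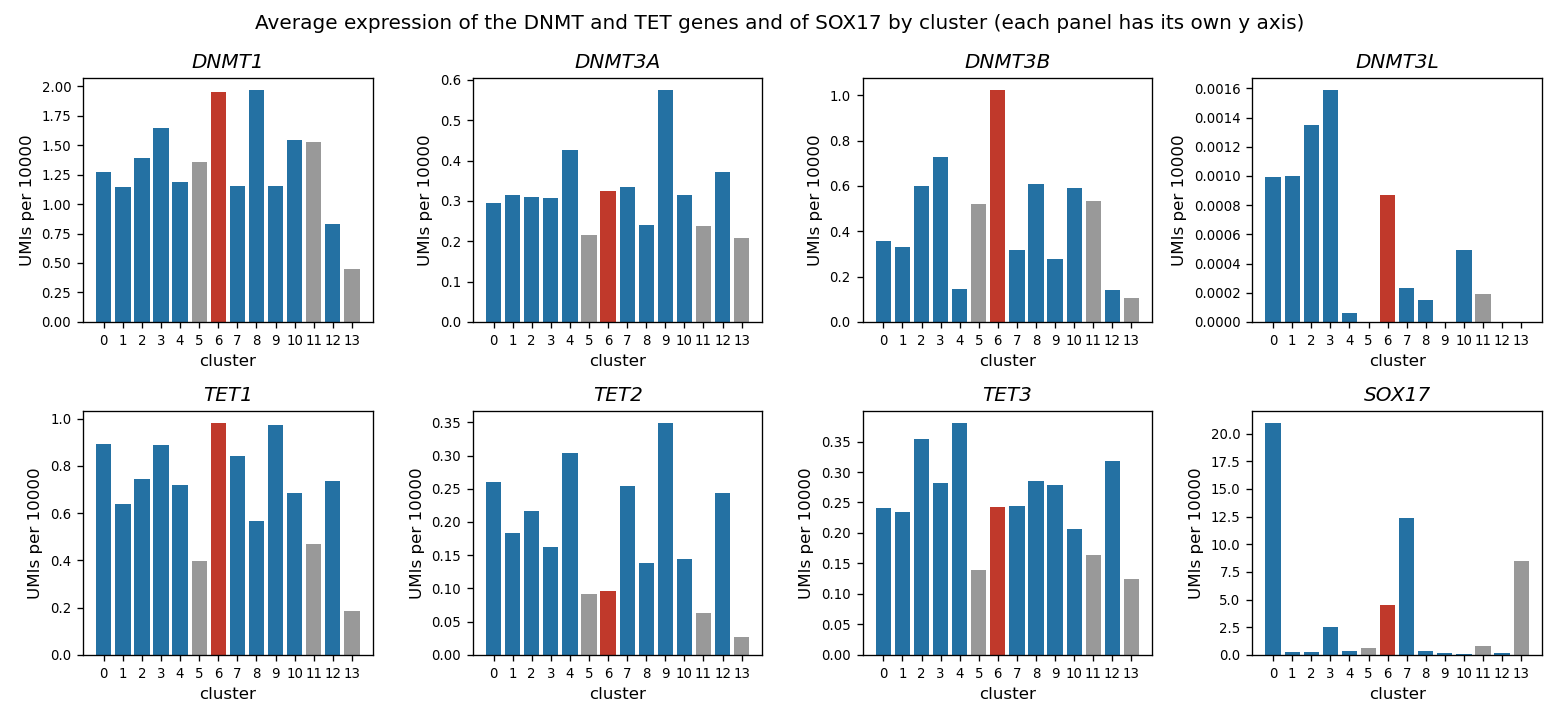
Average expression of each gene in each cluster (y axis, UMIs per 10000, with its own range in each panel; x axis, cluster number), with cluster 6 in red, the clusters with a low median over all genes (5, 11 and 13) in grey and the others in blue; libraries are pooled, so no error can be drawn. DNMT3B peaks in cluster 6 (1.02), where TET2 is low (0.0960), and DNMT3L stays at or below 0.00159.

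DNMT3A, the other de novo enzyme, followed another order. It was highest in clusters 9 (0.575), 4 (0.426), 12 (0.372) and 7 (0.333). Clusters 6 (0.325), 1 (0.314), 10 (0.314), 2 (0.311), 3 (0.308) and 0 (0.295) lay close together, and the lowest values were in clusters 8 (0.239), 11 (0.239), 5 (0.216) and 13 (0.209). The presomitic mesoderm cluster 9 and the mesenchymal cluster 4 thus led for DNMT3A and were low for DNMT3B. In cluster 9, 67.7% of cells had a DNMT3A UMI and 54.1% of other cells did. Cluster 9 comes mainly from 1 library code, whose part in this was not tested.

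DNMT3L, the cofactor, was barely detected. Its highest average was 0.00159 in cluster 3, which corresponds to at most 67 UMIs in 2370 cells, and it was 0 in clusters 5, 9, 12 and 13. A count of 0 allows UMIs in up to 0.167%, 0.318%, 1.67% and 7.14% of the cells of these clusters, in that order, by counting error alone. No order among clusters was read from these values.

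TET1, the family member known from pluripotent cells, was highest in clusters 6 (0.982), 9 (0.973), 0 (0.892) and 3 (0.888). It then fell through clusters 7 (0.841), 2 (0.745), 12 (0.735), 4 (0.719), 10 (0.685), 1 (0.640) and 8 (0.569) to clusters 11 (0.471), 5 (0.398) and 13 (0.186). The EC-gene cluster 6 and the mesoderm-gene cluster 9 thus had nearly equal TET1, and the 3 lowest clusters are those in which most genes read low.

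TET2 led in clusters 9 (0.349), 4 (0.304), 0 (0.261), 7 (0.255), 12 (0.244) and 2 (0.217). Lower values were found in clusters 1 (0.183), 3 (0.162), 10 (0.145) and 8 (0.138), and the lowest in clusters 6 (0.0960), 5 (0.0916), 11 (0.0637) and 13 (0.0265, at most 3 UMIs). Among the 11 clusters without a low median over all genes, cluster 6 was thus the lowest for TET2 and the highest for TET1 and DNMT3B. Cluster 6 also had the lowest median log2 difference of all genes among those 11 (-0.05). TET2 ran with that median over the 14 clusters (rho 0.96), and the part of this shift in low TET2 was not tested. TET3 varied less, with the highest levels in clusters 4 (0.380), 2 (0.355) and 12 (0.318), the lowest in clusters 11 (0.164), 5 (0.140) and 13 (0.124), and the other 8 clusters between 0.207 and 0.285.

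Against all genes, the log2 spread over clusters of DNMT3B was larger than that of 93.3% of genes, that of TET1 larger than 82.7%, DNMT1 82.4% and TET2 79.6%. DNMT3A (43.9%) and TET3 (41.7%) were near the middle. The lowest cluster of all 6 genes is cluster 13 with its 42 cells. Without it, a comparison added after seeing the data, the shares were 93.3% for DNMT3B, 77.6% for TET2, 62.6% for DNMT1, 60.8% for TET1, 59.3% for DNMT3A and 52.6% for TET3.

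**Figure D2:**
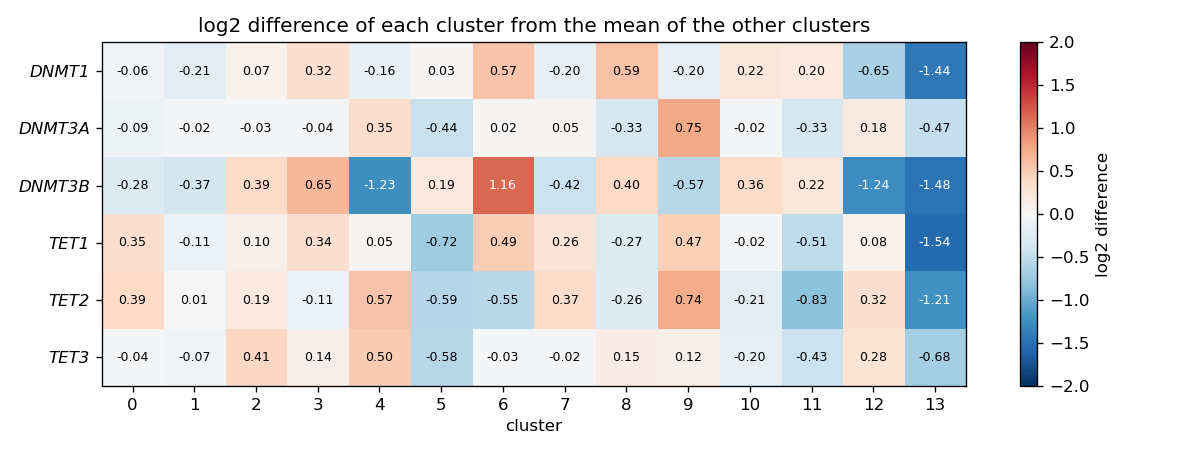
The log2 difference of each cluster (columns) from the mean of the other clusters for the 6 genes past the minimum level (rows), with 0.1 added to each average; red is higher and blue lower. DNMT3B reaches 1.16 in cluster 6 and -1.23 and -1.24 in clusters 4 and 12, and the column of cluster 13 is blue for every gene.

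Ratios within a cluster do not depend on the scaling of its column. They compare clusters only, since capture differs between genes. The ratio of DNMT3B to DNMT3A reached 3.15 in cluster 6, followed by clusters 8 (2.54), 5 (2.41) and 3 (2.35), and was lowest in clusters 9 (0.483), 12 (0.381) and 4 (0.339), a 9.28-fold span around a median of 1.55. The ratio of TET1 to TET2 peaked in cluster 6 (10.2), followed by clusters 11 (7.38) and 13 (7.02, from at most 3 TET2 UMIs), and was lowest in cluster 4 (2.37), with a median of 3.81. Cluster 6 thus stood at one end, and cluster 4 at the other end, of both ratios. DNMT3B to DNMT1 also ran from 0.121 in cluster 4 to 0.525 in cluster 6, so that DNMT3B differed between them relative to the maintenance enzyme too. DNMT3A to DNMT1 ran from 0.121 in cluster 8 to 0.497 in cluster 9, TET1 to TET3 from 1.503 in cluster 13 to 4.04 in cluster 6, and TET3 to TET2 from 0.796 in cluster 9 to 4.67 in cluster 13.

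**Figure D3:**
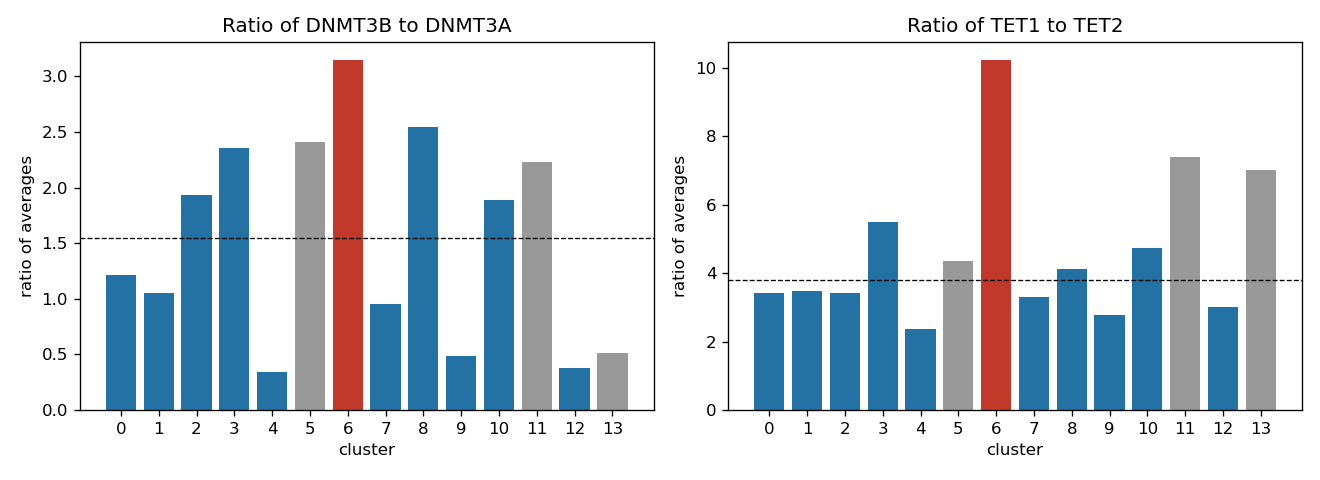
Ratio of the averages of DNMT3B to DNMT3A (left) and TET1 to TET2 (right) in each cluster, with the dashed line at the median over clusters and colours as in the plot of levels. Both ratios are highest in cluster 6 (3.15 and 10.2) and lowest in cluster 4 (0.339 and 2.37).

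Cluster 6 was also set directly against the SOX17-high clusters 0 and 7, the mesenchymal cluster 4 and the presomitic mesoderm cluster 9, pairs chosen after the levels were seen that all share cluster 6. DNMT3B was higher in cluster 6 by 2.86-fold over cluster 0, 3.23-fold over cluster 7, 7.08-fold over cluster 4 and 3.69-fold over cluster 9. With 0.1 added, it was at least 2-fold higher in all 4 pairs, where 2.59%, 2.64%, 3.34% and 5.78% of all genes were. TET2 was higher in the other cluster by 2.72-fold (0), 2.65-fold (7), 3.17-fold (4) and 3.64-fold (9), and with 0.1 added it was 2-fold lower in cluster 6 only against clusters 4 and 9, where 4.23% and 6.76% of all genes were. Against clusters 0 and 7, where 3.11% and 1.78% of genes were 2-fold lower, its log2 difference was -0.88 and -0.86. DNMT1 was 1.53-fold, 1.69-fold, 1.64-fold and 1.69-fold higher in cluster 6. TET1, TET3 and DNMT3A were at 1.10-fold, 1.01-fold and 1.10-fold of cluster 0 and at 1.17-fold, 0.992-fold and 0.975-fold of cluster 7. Against cluster 4 the same genes were at 1.36-fold, 0.639-fold and 0.763-fold, and against cluster 9 at 1.01-fold, 0.875-fold and 0.565-fold. TET3 and DNMT3A thus lay closer to cluster 6 in the SOX17-high clusters than in clusters 4 and 9. TET1 lay closest in cluster 9.

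The profiles over the 14 clusters describe what each gene ran with. The clusters share libraries and a common scaling, so no p is given. DNMT3B had a Pearson r of 0.92 (Spearman rho 0.90) with the mean of the EC genes, 0.89 (0.90) with 15 S phase genes and 0.87 (0.93) with DNMT1. The EC and S phase lists themselves correlated at 0.88, so the profile of DNMT3B cannot be assigned to one of them. DNMT1 had an r of 0.79 with the S phase genes and 0.77 with the EC genes. With 15 G2/M genes the r was 0.72 (rho 0.78) for DNMT3B and 0.61 (0.76) for DNMT1. For the others it lay between -0.53 (DNMT3A) and 0.03 (TET1). The median log2 difference of all genes had an r of 0.45 with DNMT1 and 0.14 with DNMT3B, but a rho of opposite sign (-0.19 and -0.26). It went with TET1 (r 0.91, rho 0.63), TET2 (0.91, 0.96), TET3 (0.87, 0.77) and DNMT3A (0.72, 0.71). Among those 4 genes, rescaling the columns changed r from 0.82 to 0.36 for DNMT3A with TET2, from 0.76 to 0.57 for TET1 with TET2 and from 0.79 to 0.50 for TET2 with TET3. Leaving out clusters 5, 11 and 13 instead gave 0.69, 0.20 and 0.43 for these pairs, and the part of the shared shift was not tested. TET2 had an r of -0.35 with the EC genes over all clusters, -0.77 without cluster 13 and -0.85 without clusters 5, 11 and 13, and its r with DNMT3B was -0.21, -0.71 and -0.82. With SOX17 the r of the 6 genes lay between -0.33 and -0.01 over all clusters, but without cluster 13 it changed sign for TET1 (-0.06 to 0.37), DNMT1 (-0.19 to 0.15) and DNMT3B (-0.01 to 0.21).

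**Figure D4:**
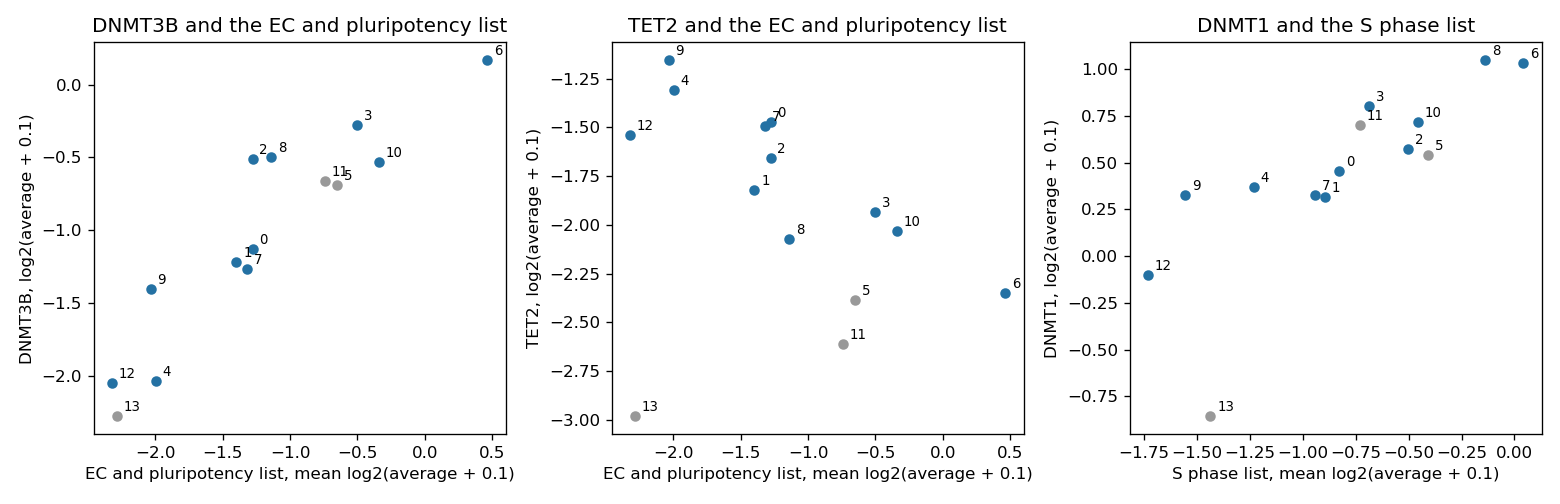
Level of DNMT3B and of TET2 against the mean of the EC gene list, and of DNMT1 against the mean of the S phase list, as log2(average + 0.1), 1 numbered point per cluster, with clusters 5, 11 and 13 in grey. DNMT3B rises with the EC list over all clusters (r 0.92), and TET2 falls with it by r -0.35 over all points, -0.77 without cluster 13 and -0.85 without the grey points.

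The genes most alike in profile, by r over 14 clusters among the genes past the minimum, were SMC3 (0.97), a cohesin subunit, CTCF (0.97), an insulator protein, and ZNF830 (0.97) for DNMT1. For DNMT3B they were HMGN2 (0.94), a nucleosome-binding protein, OTX2 (0.94), a homeobox factor of pluripotent and neural cells, and LINC01224 (0.93). DNMT3A was closest to AC092969.1 (0.94), AC011346.1 (0.93) and ZSCAN9 (0.93), which were all highest in cluster 9. TET1 was closest to ABHD17B (0.98), DARS (0.97) and DCAF16 (0.97), TET2 to STK39, AC053527.2 and DNAJB14 (0.98 each), and TET3 to CLTCL1 (0.93), ANKRD36 (0.93) and DOCK4 (0.93).

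Other genes of the pathway were described from 8 lists with 91 measured genes, 67 of them past the minimum. Of their 1274 gene and cluster pairs, 8 passed 2-fold upward and 28 downward, the latter falling to 11 without the 42 cells of cluster 13. All 36 were among the 938 pairs of genes past the minimum, a share of 3.84%, against 4.67% of the pairs of all genes past the minimum. Among 8 partners of methylation maintenance, cluster 6 had a median log2 difference of 0.59, against -0.05 for all genes. There 2 of 8 genes were 2-fold higher, where 1.18% of all genes were, and none lower. The 2 higher partners were HELLS, a chromatin remodeller needed for normal methylation (2.49 in cluster 6, 0.216 in cluster 13), and CDCA7L (0.635). PCNA, the replication clamp (1.26), USP7, which stabilises DNMT1 and UHRF1 (1.03), CDCA7 (0.314) and ZBTB24 (0.271) were also highest in cluster 6 without passing 2-fold. UHRF1 was highest in cluster 2 (0.545) and UHRF2 in cluster 4 (0.530). In cluster 8 HELLS was nearly as high as in cluster 6 (2.33, log2 difference 0.996) and PCNA reached 1.09, but CDCA7L was 0.263. The list median was 0.17 there. The median log2 difference of the S phase genes was 0.80 in cluster 6 and 0.64 in cluster 8, and its part in this was not tested. In cluster 13, 3 of the 8 were 2-fold lower, where 23.9% of all genes were, and in cluster 12, 1 was, where 3.13% were.

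Of 10 readers of methylated CpG, MBD5 was 2-fold higher in cluster 9 (1.79), where 3.07% of all genes were. It was the only such pair in the list. The 5 pairs that were 2-fold lower lay in clusters 5 (1), 11 (1) and 13 (3). In these clusters 4.25%, 5.02% and 23.9% of all genes were 2-fold lower. ZBTB38 was highest in cluster 12 (1.67). Of 14 genes of oxidised cytosine removal, TDG, which excises the oxidised bases, was highest in cluster 8 (1.67) and lowest in cluster 13 (0.332), and APEX1 ranged from 0.883 to 1.88. The stress genes GADD45A (2.74 in cluster 12), GADD45B (2.08 in cluster 13) and GADD45G (0.282 in cluster 9) were each 2-fold higher in that cluster. Of all genes, 2.82%, 1.85% and 3.07% were 2-fold higher in these clusters, in that order. GADD45B was 2-fold lower in cluster 6 (0.395), where 1.38% of all genes were. The deaminase APOBEC1 did not exceed 0.00140.

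Of 13 genes of the methyl donor cycle, SHMT2 was 2-fold higher in cluster 13 (1.84), and 3 genes, MTR, SHMT1 and MTHFD1, were 2-fold lower there. In that cluster 1.85% of all genes were at least 2-fold higher and 23.9% lower, and after rescaling 0 of the list were lower. MAT2A, which makes S-adenosylmethionine, stayed between 0.692 and 1.11, and AHCY, which clears the product of methylation, between 1.03 and 2.06. Among 11 genes that supply or bind TET enzymes, IDH1, a source of 2-oxoglutarate, was 2-fold higher in cluster 10 (2.15). There 1.25% of all genes were. CXXC5, a CpG-binding protein that interacts with TET2, was 2-fold lower in clusters 0, 6 and 13. In these clusters 1.79%, 1.38% and 23.9% of all genes were 2-fold lower. The level of CXXC5 was lowest in cluster 0 (0.0960) and highest in cluster 8 (1.13). The list median was 0.39 in cluster 9 and -0.13 in cluster 6, against 0.09 and -0.05 for all genes.

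Of 8 genes of imprint protection, TRIM28 (0.719 to 1.38), CTCF (0.229 to 1.37) and ARID4B (0.287 to 1.57) were well measured, whereas ZFP57 (at most 0.00144), DPPA3 (0.0236) and CTCFL (0.00433) were near 0. No pair was 2-fold higher and 3 were 2-fold lower, 1 in cluster 12 and 2 in cluster 13. In these clusters 3.13% and 23.9% of all genes were 2-fold lower. The 12 chromatin partners of DNMT3 had no pair 2-fold higher and 5 lower, all 5 in cluster 13, where 23.9% of all genes were lower. SETD2, which places the H3K36 mark read by DNMT3B, ranged from 0.141 in cluster 13 to 1.32 in cluster 8. The 15 germline genes whose promoters are methylated in somatic cells had 1 member past the minimum, BRDT (0.221 in cluster 8), and no pair past 2-fold. DAZL, DDX4, MAEL and PIWIL1 did not exceed 0.0273 in any cluster. At such levels the 0.1 added keeps most of these genes from reaching 2-fold, and with 0.01 added 10 pairs were higher and 13 lower, so nothing is read from the count.

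**Figure D5:**
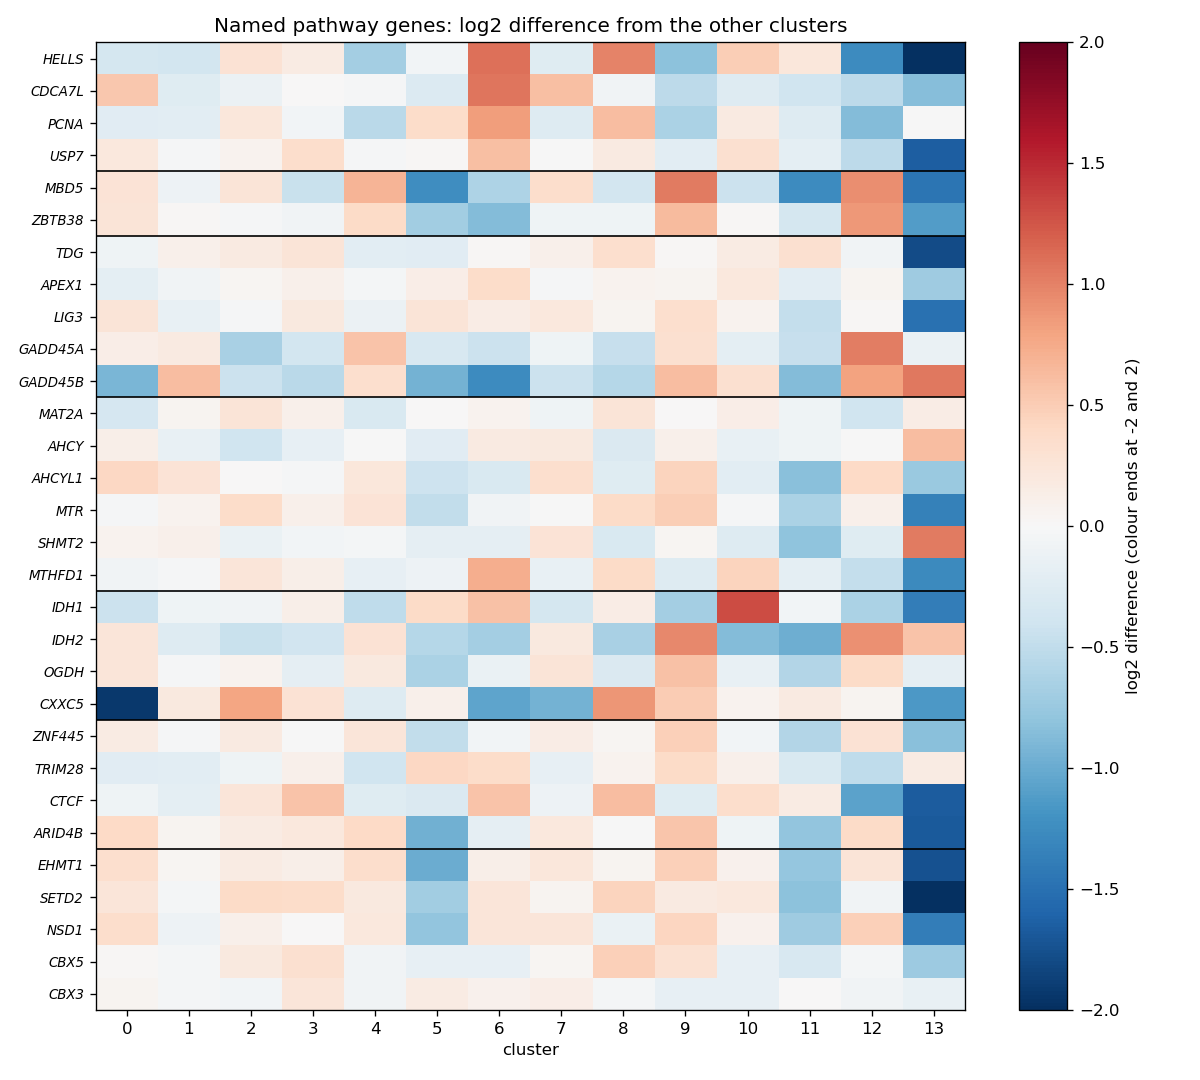
The log2 difference of each cluster (columns) from the mean of the other clusters for named genes of 7 pathway lists (rows, with black lines between lists), 0.1 added to each average and colours ending at -2 and 2. The maintenance partners drawn at the top, a part of their list, are red in cluster 6, led by HELLS (2.49 UMIs per 10000) and CDCA7L (0.635). Most rows are blue in cluster 13. HELLS is nearly as high in cluster 8 (2.33).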

How the data were processed

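Droplet libraries (3′ kit) of NCCIT, GCT27 and 2102EP, 1 per line, were analysed from tables deposited by the authors. Per the labels, Cell Ranger 7.0 and Seurat 4.1.1 were used with GRCh38, and per the study's methods libraries were aggregated to equal depth and cells with few genes, a high mitochondrial share or doublet calls were removed. The cell table deposited by the authors gives counts of cells and the percent of each cluster per library code. The averages deposited by the authors are means over cells of UMIs per 10000 UMIs, so UMI counts were not recovered and the depth behind a value is known only as an upper bound, its average divided by the smallest non-zero average of the cluster. The marker table deposited by the authors gives the fraction of cells with a UMI, printed as a percent. Its fold changes and p-values are the authors' own comparisons and were not used.

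Log2 differences used a pseudocount of 0.1, and all genes with a mean of at least 0.05 formed the background. Named were all 7 genes, SOX17, the 3 highest and 3 widest-ranging genes of each list, the 3 most alike genes per member and the EC genes. Genes named besides these (UHRF1, UHRF2, CDCA7, ZBTB24, GADD45G, APOBEC1, SHMT1, ZFP57, DPPA3, CTCFL, DAZL, DDX4, MAEL, PIWIL1 and the lineage markers other than EC genes) were chosen after their values were seen. The members and lists were chosen with earlier results of these data known. The motifs and promoter windows were chosen after the data were seen: a first set of windows, from RefSeq starts, was replaced by GENCODE canonical starts because 1 window lay far from its canonical start, and only the second set is reported. Replacing it removed the CCAAT box match of 1 member and added members to those with a GC box. Some genes and 1 promoter that these rules cover are not reported here. Code was checked on simulated data. Python 3.11.15, pandas 2.3.3 and numpy 2.4.6 were used.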

Additional observations from a re-analysis of the deposited data

How the results depend on the processing

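No paired analysis was possible because each line has 1 library, its replicate number names no pairing and the averages pool the libraries. Comparisons between lines and leaving out a line were planned but could not be run, since no column matches a line. A count or ratio was taken as moved beyond 1.5 times and a correlation beyond 0.3, limits set after the files were seen, and the cause of no change was tested. The settings without clusters 5, 11 and 13 and the rescaled correlations were added after seeing the data. The DNMT3B calls in clusters 4, 6, 12 and 13 were lost only with a pseudocount of 1, among the alternatives that hold the cluster.

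With a pseudocount of 1 the 1 higher and 6 lower member calls fell to 0, as did every pathway list call (8 higher, 28 lower). The EC genes then had 2 higher and 2 lower pairs (11 and 33 with 0.1), the S phase genes 0 and 0 (4 and 18) and the G2/M genes 9 and 5 (19 and 44). A pseudocount of 0.01 gave 2 higher member calls, with TET2 now higher in 1 cluster, lower in 2 and TET3 lower in 1. Pathway pairs were then 31 higher and 81 lower. By list, they were 9 lower for maintenance partners (4 with 0.1), 3 higher and 9 lower for readers (1 and 5), 8 and 15 for oxidised cytosine removal (3 and 3), 5 and 15 for TET cofactors (1 and 5), 1 and 6 for imprint protection (0 and 3), 10 lower for chromatin partners (5) and 10 and 13 for germline genes (0 and 0). The EC genes had 50 lower and the S phase genes 10 higher.

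Rescaling left 3 lower member calls, with 0 for DNMT1, TET1 and TET2. It left 17 lower pathway pairs, with readers at 0 higher and 1 lower, methyl donor genes at 2 higher and 0 lower, TET cofactors at 4 and 3, chromatin partners at 2 lower and germline genes at 1 higher. Without clusters under 100 cells (cluster 13) there were 2 lower member calls, with 0 for DNMT1, TET1 and TET2, and 11 lower pathway pairs, and the same 2 lower member calls counted without clusters 5, 11 and 13 (DNMT1, TET1 and TET2 again 0). By list, leaving out cluster 13 left 1 lower for maintenance partners, 0 higher and 2 lower for readers, 0 and 0 for methyl donor genes, 2 and 3 for TET cofactors and 1 lower for chromatin partners. Weighting clusters by cells left 1 higher for maintenance partners, 0 for readers, 0 for methyl donor genes, 2 for TET cofactors, 1 for germline genes and 1 for S phase genes, and 5 lower for oxidised cytosine removal. Without clusters of over 80% from 1 library code, 5 pathway pairs were higher, with 1 for maintenance partners, 0 higher and 3 lower for readers, 0 higher for methyl donor genes and 1 for germline genes. The S phase genes then had 1 higher and 5 lower and the G2/M genes 28 lower.

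The TET3 to TET2 span was 3.23-fold without cluster 13 (5.86-fold with it). Correlations that changed without cluster 13 were DNMT1 with DNMT3A (-0.48), TET1 (-0.0797, reversed from 0.57), TET2 (-0.64), TET3 (-0.22) and SOX17 (0.15). DNMT3B changed with DNMT3A (-0.54), TET1 (-0.0449), TET2 (-0.71) and TET3 (-0.38). The EC genes changed with TET1 (-0.0673), TET2 (-0.77) and TET3 (-0.52), the S phase genes with TET1 (-0.23) and TET2 (-0.71), and SOX17 with TET1 (0.37). Without clusters 5, 11 and 13, DNMT1 gave -0.52 with DNMT3A, -0.0182 with TET1 (reversed), -0.76 with TET2, -0.24 with TET3 and 0.16 with SOX17. DNMT3B gave -0.54 with DNMT3A, -0.82 with TET2 and -0.40 with TET3. TET3 gave 0.28 with DNMT3A, 0.43 with TET2, -0.54 with the EC genes and -0.13 with TET1 (reversed from 0.72). TET1 gave 0.20 with TET2 and 0.54 with SOX17, and TET2 gave -0.85 with the EC and -0.84 with the S phase genes. Without clusters of mainly 1 library code, DNMT3A gave 0.0591 with the EC and -0.11 with the S phase genes. After rescaling, DNMT1 gave -0.47 with DNMT3A, -0.35 with TET2 and -0.16 with TET3. DNMT3A gave 0.20 with TET1, 0.36 with TET2 and 0.17 with TET3, and TET1 gave 0.30 with TET3 and TET2 -0.66 with the S phase genes. No correlation of DNMT3B with DNMT1, the EC genes or the S phase genes moved by 0.3 under these settings.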
